A study of Bos taurus with 64 samples.

Results

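The genes of calcium handling and calcium signalling were examined in 2 muscles of stressed cows and of cows handled with limited stress. The members were chosen by name: every array probe, control features apart, whose gene name in the array files begins with or equals a symbol of a voltage-gated calcium channel, TRPC or inositol trisphosphate receptor channel, calcium pump, protein of the sarcoplasmic reticulum, parvalbumin, calcineurin subunit, calmodulin-dependent kinase, S100 protein or annexin. This gave 46 of 5449 named genes and 48 of 13285 probes, since CACNA1G and SRL had 2 probes each. ASPHD2 is a member only because its name begins with ASPH. RYR1, CACNA1S, the calsequestrins, sarcolipin, phospholamban, the junctophilins, STIM1, ORAI1, NFATC1 and RCAN1 had no probe under these names and were not analysed here.

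The samples came from 32 cull cows of the Normand breed, aged 4.5 years, each sampled in the M. longissimus thoracis (LT) and the M. semitendinosus (ST), which gave 64 single-colour arrays. Muscle, stress and diet were crossed to give 8 groups of 8 samples. Stressed cows (moderated stress in the labels) were carried alone in a lorry and then spent 30 min in a labyrinth on a farm they did not know, whereas cows of the limited stress group were handled calmly and travelled with another cow. All cows ate a lipid-rich finishing diet with extruded oilseeds. The control diet had no other supplement, and the EP diet added vitamin E and plant extracts rich in polyphenols. Samples were frozen after excision within 15 min of slaughter, so the stress groups differed in a short episode of mixed physical and emotional stress, and each cow gave a single time point.

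Contraction of a muscle fibre starts when depolarisation of the membrane opens the release channel of the sarcoplasmic reticulum and calcium binds troponin. Relaxation follows when the pumps of the SERCA family return calcium to the reticulum, ATP2A1 being the fast fibre pump and ATP2A2 the pump of slow fibres and of the heart, while the buffer parvalbumin takes up calcium in fast fibres. Calcium also acts as a signal: bound to calmodulin it activates calcineurin, a phosphatase tied to the slow fibre programme, and the CaMK kinases. In cattle the ST is generally described as the more glycolytic muscle of the pair.

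The first 30 of the 60 bases of a probe are printed for some members. These are the 5 with the largest called difference between the muscles and the member called for stress. The values below for these members are the signal of the printed probe, unless a custom probe set is named. The bases are in lower case throughout, since none of them is singled out, and read 5′ to 3′. The positions are those of the whole probe in the array files, on the assembly HGSC Btau_3.1.
PVALB, chr5:80832225-80832284, minus strand: gtggccctctcatgacaccaatcttctgga
ANXA9, chr3:21289383-21289442, minus strand: agaactcaaagtttcttttaaattccttca
CACNA1B, chr11:110177315-110177374, plus strand: gacctcgcagtcccaccccctccgccgggt
S100A4, chr3:18224615-18224674, plus strand: gtgggcacatcagctcaccctggctcctcc
ATP2A2, chr17:57012177-57012236, plus strand: tggatcagaggtgctatatactactttaag
PPP3R1, chr11:68515320-68515379, minus strand: gacagcagcatgaaaagagcatatcaatgt
The S100 probes lay close together, 8 of 9 on chromosome 3 between 18060555 and 20282468, and the probe of the other gene, S100G, had no position in the files. The 7 annexin probes were spread over 6 chromosomes.

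The values below are log2 of a probe's processed signal divided by the 75th percentile of the array, so 0 is the signal of a bright spot of that array and a difference of 1 is 2-fold. The share of spots well above background was 71.4% to 80.9% per array, and the 75th percentile ranged from 2470 to 4202 units. The arrays lay on 9 slides scanned on 5 days, and each slide held samples of 1 muscle only, so muscle cannot be told apart from slide and scan day. Both arrays of 1 stressed cow on the control diet stood apart from the rest, with median correlations to their muscle's arrays of 0.965 for the LT sample and 0.966 for the ST sample, against 0.978 and 0.980 for the lowest of the other arrays. Both tissues carried muscle transcripts, all 12 fibre markers on the array being well above background on every array, while haemoglobin HBB was so on only 20 of 64.

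Most members were measurable. A total of 31 of the 46 were well above background on all 64 arrays, and 37 passed the filter in the LT, 35 in the ST and 36 over both muscles. Most genes that failed the filter were channels: the named probes of CACNA1D, CACNA1G, CACNB2, CACNB4, CACNG2, ITPR2 and TRPC1 passed it in neither muscle, nor did those of CALML5 and ANXA10. CACNA1B, CACNB1, CACNB3, ITPR1 and ITPR3 were above background on all arrays. CACNA1H was well above background on 12 LT and 4 ST arrays and TRPC4 on 16 LT and 8 ST arrays, so within a muscle both were tested in the LT only. No member spot was saturated on any array.

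The comparison of LT with ST asked which calcium genes separate the muscles. It gave 19 of 36 tested members past the threshold (an adjusted p under 0.1 in limma's moderated test for at least 80% of the probes of the gene). Of these, 15 were lower in the LT, against 29.5% of all 4277 genes tested, and 4 were higher in the LT, against 22%. This split rested on the scaling, with 9 members higher and 5 lower with control feature scaling, and 13 higher and 8 lower without scaling. The median difference of the members was -0.05 against -0.03 for all genes. With the 75th percentile, parvalbumin, 5 of 9 S100 proteins and the members grouped as reticulum proteins (HRC, SRL and ASPH, 3 of 3 tested) were lower in the LT. Of the S100 proteins, 2 of 9, S100A1 and S100A4, were lower with control feature scaling or without scaling. The slow pump ATP2A2, ANXA9, ASPHD2 and CAMK2D were higher in the LT with the 75th percentile. In whole muscle, fewer cells or fibres of a type and less RNA per cell cannot be told apart.

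**Figure D1:**
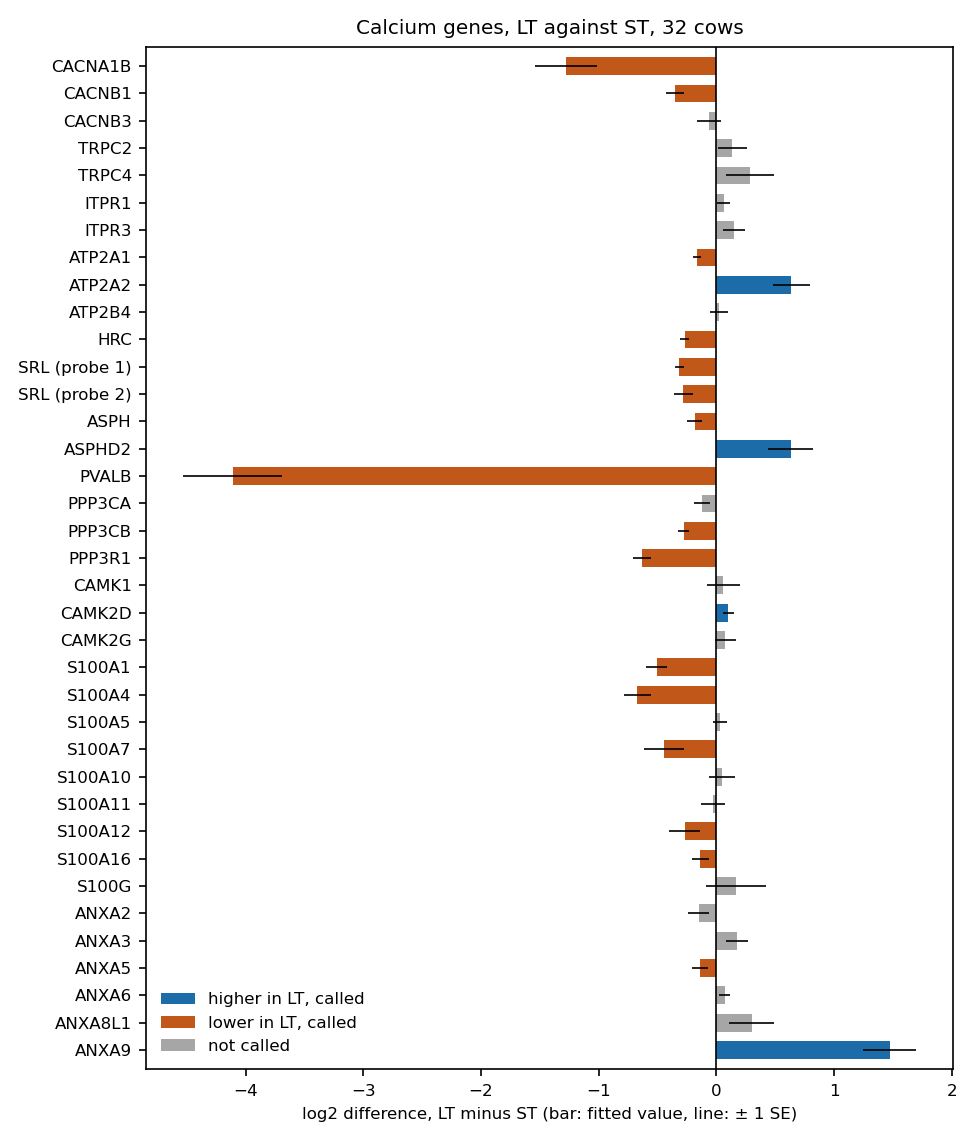
Log2 difference LT minus ST of each tested member with its standard error, grouped by role, from limma over 64 arrays. PVALB lies far from the rest at -4.11, and most other called members lie within 1 of 0.

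PVALB, the cytosolic buffer that speeds relaxation in fast fibres, was by far the member that differed most. Its LT values ran from -8.22 over a median of -5.17 to -1.43, and its ST values from -5.90 over -0.44 to 2.51. The ranges overlapped, but ST was the higher muscle in 32 of 32 cows, 21 ST arrays lay above the highest LT array and 9 LT arrays below the lowest ST array. The fitted difference was -4.11 ± 0.42 (SE), a 17.3-fold lower signal in the LT (limma, adjusted p = 3.5e-12), and 12th in size among the 10378 tested probes. Within cows the difference ranged from -6.88 to -0.84. PVALB was also among the most variable probes within a muscle, with an SD within groups above that of 99.9% of tested probes in the ST and 99.5% in the LT. Its slide means did not overlap between muscles, at -5.47 to -4.69 in the LT and -2.10 to -0.49 in the ST.

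The fast and slow pumps moved in opposite directions with the 75th percentile, and the named probe of ATP2A1 lost its direction with control feature scaling. The ATP2A2 values of the LT ran from -1.32 over a median of -0.23 to 1.20 and those of the ST from -2.25 over -0.99 to 0.68, and LT was higher in 25 of 32 cows. The difference was 0.64 ± 0.16, or 1.56-fold (adjusted p = 0.000461). ATP2A1 had values of 6.38, 6.65 and 6.88 (lowest, median and highest) in 32 LT arrays and of 6.52, 6.81 and 7.05 in the 27 ST arrays whose spot was not set aside by the scanner software. It was lower in the LT by a small amount, with a difference of -0.17 ± 0.04 (adjusted p = 8.0e-05) and ST higher in 24 of 27 cows, and 0.03 when arrays were scaled by their control features. ATP2B4, a calcium pump of the plasma membrane, differed by 0.02 ± 0.08 (adjusted p = 0.814).

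The 3 members grouped as proteins of the sarcoplasmic reticulum were all lower in the LT by small amounts with the 75th percentile. None passed with control feature scaling. HRC, the histidine-rich calcium-binding protein of the lumen, had LT values of 2.35, 3.34 and 3.59 and ST values of 3.25, 3.57 and 3.76 (lowest, median and highest), and ST was higher in 32 of 32 cows. Its difference was -0.27 ± 0.04 (adjusted p = 2.3e-07). SRL, the luminal glycoprotein sarcalumenin, gave -0.32 ± 0.04 (adjusted p = 7.0e-10) with its brighter probe, which was higher in the ST in 32 of 32 cows, and -0.28 ± 0.08 (adjusted p = 0.0027) with the other. ASPH, whose gene also encodes junctin, gave -0.18 ± 0.06 (adjusted p = 0.0142) and was at 0.0027 with control feature scaling. Whether the ASPH probe reads the junctin form was not tested. The SD within groups was 0.20 (LT) and 0.11 (ST) for HRC and 0.12 (LT) and 0.13 (ST) for ATP2A1, where the median probe had 0.30 (LT) and 0.28 (ST).

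**Figure D2:**
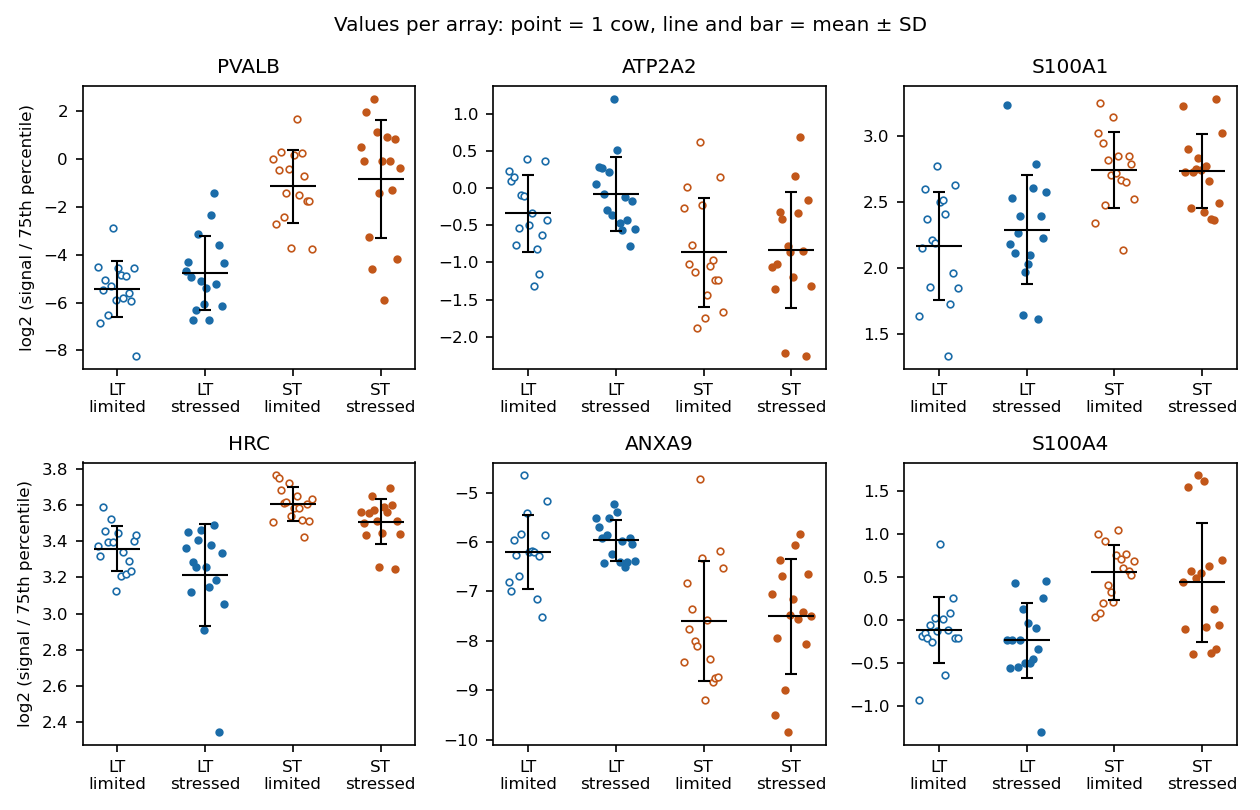
Values of 6 members on each array, as log2 of the signal over the 75th percentile, by muscle and stress group in 32 cows, with mean and SD. PVALB, S100A1, S100A4 and HRC were higher in the ST in 29 to 32 of 32 cows, while ATP2A2 was higher in the LT in 25 and ANXA9 in 28.

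Among the S100 proteins, small calcium sensors of which S100A1 is the form of striated muscle, S100A4 differed most. Its LT values were -1.31, -0.20 and 0.89 and its ST values -0.39, 0.53 and 1.69 (lowest, median and highest), with ST higher in 29 of 32 cows and a difference of -0.67 ± 0.12 (adjusted p = 2.2e-06). S100A1 ran from 1.33 over 2.22 to 3.23 in the LT and from 2.13 over 2.73 to 3.28 in the ST, with ST higher in 30 of 32 cows and a difference of -0.51 ± 0.09 (adjusted p = 3.2e-06). S100A7, S100A12 and S100A16 were lower in the LT by 0.44, 0.27 and 0.14 (adjusted p = 0.0257, 0.0885 and 0.0977), and each of these calls was lost with slide as a random block, at adjusted p = 0.117, 0.191 and 0.241. S100A16 turned to 0.0523 with control feature scaling. S100A12 differed by 0.84 between the LT arrays of the third and the fourth scan day. Without the latter (slides 7 and 8) its difference was 0.12 (adjusted p = 0.541), against -0.69 (adjusted p = 3.3e-05) without slides 5 and 6. These fits kept the ST arrays of all 32 cows, and each of these scan days held LT samples of other cows. In the ST, slides 1 and 2 (cows of slides 5 and 6) had S100A12 means of -3.84 and -3.89. Slides 3 and 4 (cows of slides 7 and 8) had -4.25 and -4.08, and slide 9, with cows of both, had -4.06. S100A5, S100A10, S100A11 and S100G did not pass the test.

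Of the annexins, which bind membranes in the presence of calcium, 2 of 6 tested passed the test. ANXA9 had LT values of -7.52, -6.12 and -4.65 and ST values of -9.85, -7.53 and -4.72, and LT was higher in 28 of 32 cows. The difference was 1.47 ± 0.22, or 2.78-fold (adjusted p = 1.5e-07), but the probe was dim, well above background on all 32 LT arrays and on 19 ST arrays, and with normexp background correction and quantile scaling its difference was 0.42. ANXA5 was lower in the LT by 0.14 (adjusted p = 0.0748), a call that was lost with slide as a random block (adjusted p = 0.189) and a difference that turned to 0.05 with control feature scaling. ASPHD2, a protein related to the hydroxylase of the ASPH gene, was higher in the LT in 31 of 32 cows, with a difference of 0.63 ± 0.19 (adjusted p = 0.00508).

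Of the 3 calcineurin subunits 2 were lower in the LT, and CAMK2D was higher. PPP3R1, the regulatory subunit of calcineurin, had LT values of -5.15, -4.33 and -4.00 over 31 arrays and ST values of -4.81, -3.70 and -3.19 over 32 (lowest, median and highest). ST was higher in 29 of 31 cows, and the difference was -0.63 ± 0.08, or 1.55-fold (adjusted p = 4.3e-10). The catalytic subunit PPP3CB differed by -0.28 ± 0.05 (adjusted p = 1.1e-06), with ST higher in 27 of 32 cows. The PPP3CB call was lost with control feature scaling, though the sign was kept. The other catalytic subunit, PPP3CA, gave -0.12 ± 0.07 (adjusted p = 0.144). A custom probe set of the array that shares at least 25 bases with the PPP3CA probe was called lower with a mean of -0.23. The set mean was 0.0062 without slides 5 and 6 (0 of 5 probes past the threshold) and -0.45 without slides 7 and 8 (5 of 5). The set was not called with control feature scaling, without scaling or with slide as a random block. CAMK2D, a chain of the multifunctional kinase CaMKII, differed by 0.10 ± 0.04 (adjusted p = 0.0479), and this call was lost with slide as a random block (adjusted p = 0.171). CAMK2G and CAMK1 did not pass the test.

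Among the channels, CACNB1, the beta subunit of the skeletal muscle dihydropyridine receptor, was lower in the LT by 0.35 ± 0.08 (adjusted p = 0.000183). Its LT values were -2.16, -0.98 and -0.60 and its ST values -1.45, -0.71 and -0.17, and ST was higher in 28 of 32 cows. The CACNB1 call was lost with control feature scaling, though the sign was kept. CACNB3 and the 4 tested members of the TRPC and inositol trisphosphate receptor group did not pass.

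CACNA1B, the pore subunit of a neuronal calcium channel, was called lower in the LT as well, but its probe split by scan day within the LT. The 16 LT arrays of the third scan day (slides 5 and 6) had values of 2.59 to 3.23, and the 16 of the fourth day (slides 7 and 8) had values of -0.11 to 0.88. The ST slide means were 2.63 to 3.02. Over all arrays the difference was -1.28 ± 0.26 (adjusted p = 4.2e-05). Without slides 7 and 8 it was 0.09 ± 0.10 (adjusted p = 0.491), and without slides 5 and 6 it was -2.66 ± 0.11 (adjusted p = 2.2e-24). Only 1 other tested probe had a larger difference between these days, and CACNA1B was the only member among the 128 of 10378 tested probes (1.23%) whose values did not overlap between them. The call for CACNA1B therefore rests on the arrays of 1 scan day.

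**Figure D3:**
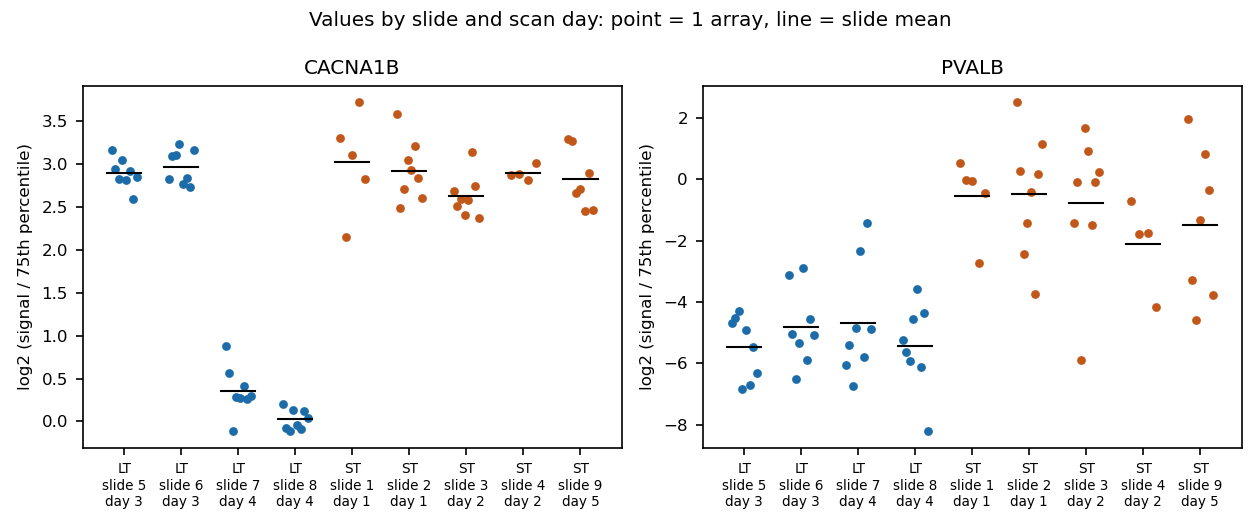
Values of CACNA1B and PVALB on each array by slide, as log2 of the signal over the 75th percentile, with slides 5 to 8 holding LT samples and slides 1 to 4 and 9 holding ST samples. CACNA1B drops from 2.59 to 3.23 on slides 5 and 6 to between -0.11 and 0.88 on slides 7 and 8, while the slide means of PVALB do not overlap between muscles.

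Since the cow number pairs the muscles, the muscles were also compared with cow as a block. The count of members called rose from 19 to 24, and that of members higher in the LT from 4 to 7. The 5 added were ANXA3 (0.18), ITPR3 (0.15) and ANXA6 (0.07), higher in the LT, and ANXA2 (-0.15) and PPP3CA (-0.12), lower, with adjusted p of 0.0382, 0.0941, 0.043, 0.0433 and 0.0519, in that order. None of these 5 was called when slide entered as a random block beside the cow block, a fit that called 16 members, 3 higher and 13 lower. With slide as a random block alone 14 members were called, 3 higher and 11 lower. The median difference of all probes was 0.17 with control feature scaling and 0.11 without scaling, against -0.02 with the 75th percentile, and 82.6% and 72.7% of all genes called were higher in the LT, against 42.8%. ANXA9, ASPHD2 and ATP2A2 (higher) and PPP3R1, PVALB, S100A1 and S100A4 (lower) had the same call in every setting in which they were tested, 12 or 13 each.

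No member separated the muscles completely: 0 member probes had LT and ST values that did not overlap, against 27 of 10378 tested probes (0.260%). Custom probes of the same transcripts gave a partial check that is not independent, since custom probe sets were matched to a member by at least 25 shared bases. With the main scaling and all arrays, 8 of 8 such sets of called members had the sign of the named probe and 7 were called in its direction. The set means were -0.63 for PPP3R1, -0.37 for S100A1, -0.32 for SRL, -0.29 for ATP2A1, -0.27 for PPP3CB and -0.23 for HRC. Of the sets of members not called, that of PPP3CA was called lower (4 of 5 probes) and that of ANXA6 higher (mean 0.25, 4 of 5 probes). Of the set of CACNB2, 3 of 5 probes were tested and 2 were past the threshold, higher in the LT (mean 0.25), short of a call. Some set calls of called members rested on the scaling or the slides. With control feature scaling the sets of ATP2A1, PPP3CB and S100A16 had 0 of 5 probes past the threshold, and that of PPP3R1 had 5 of 5. The means were then -0.11 for ATP2A1, -0.08 for PPP3CB and -0.02 for S100A16. Without scaling the sets of ATP2A1 (mean -0.16) and PPP3CB (-0.14) were called lower with 4 of 5 probes each. That of S100A16 (-0.08) was not, with 1 of 5. Without slides 5 and 6 the sets of ATP2A1 (mean -0.07) and S100A16 (-0.09) had 1 of 5. Those of PPP3CB (-0.28) and PPP3R1 (-0.69) then had 5 of 5.

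Fibre type markers moved with the muscles. The 5 tested fast fibre markers were all lower in the LT with the 75th percentile, and 0 of 5 with control feature scaling or without scaling, and their summed level was 312 to 424 in the LT and 320.05 to 490.22 in the ST. Of 7 slow fibre markers 5 were higher in the LT (TNNT1 by 0.91) and MYH7 was lower by 0.12, a call not made with control feature scaling or without scaling, with summed levels of 214 to 357 in the LT and 151 to 340 in the ST. The smooth muscle markers ACTA2, TAGLN and MYH11 were higher in the LT by 0.72, 0.61 and 0.54, 3 of 4 tested, with summed levels of 2.74 to 11.3 in the LT and 1.58 to 14.9 in the ST. Of the other markers, PECAM1 of endothelium was higher by 0.34, COL1A1, 1 of 5 fibroblast markers, was lower by 0.48, and neither the 3 fat markers nor the single immune marker passed. The part of these cells in the differences of the members was not tested.

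A list of 62 other genes of the pathway, 20 of them on the array and 18 tested, gave 3 higher and 9 lower in the LT (3 and 2 with control feature scaling, 6 and 5 without scaling). RRAD, a small GTPase that restrains calcium channels, was higher by 1.13 ± 0.12 (adjusted p = 1.5e-11), and SLC8A3, a sodium-calcium exchanger of skeletal muscle, was lower by 0.80. The troponin C genes are also among the fibre markers above, so their values repeat part of those lists. TNNC1 of slow fibres was higher by 0.50, and TNNC2 of fast fibres, with the 75th percentile, was lower by 0.17.

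In the LT, stress changed none of the calcium genes past the threshold: 0 of 37 tested members were called by limma, against 3.73% of all 4311 genes. At an unadjusted p under 0.05 there were 5 (ANXA3, CACNB1, CAMK2D, CAMK2G and S100A16), against 14.5% of all genes. The differences leaned to lower values in stressed cows, with 27 of 37 below 0 and a median of -0.12, but so did those of all genes, of which 65.2% were below 0 with a median of -0.05. The median of all probes was -0.23 with control feature scaling and -0.01 without scaling. The triad and reticulum genes differed little, with -0.04 for ATP2A1, -0.14 for HRC, -0.13 and 0.01 for the probes of SRL and -0.28 ± 0.12 (adjusted p = 0.237) for CACNB1. ATP2A2 gave 0.26 ± 0.18 (adjusted p = 0.488) and PVALB 0.66 ± 0.47 (adjusted p = 0.521), neither past the threshold.

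**Figure D4:**
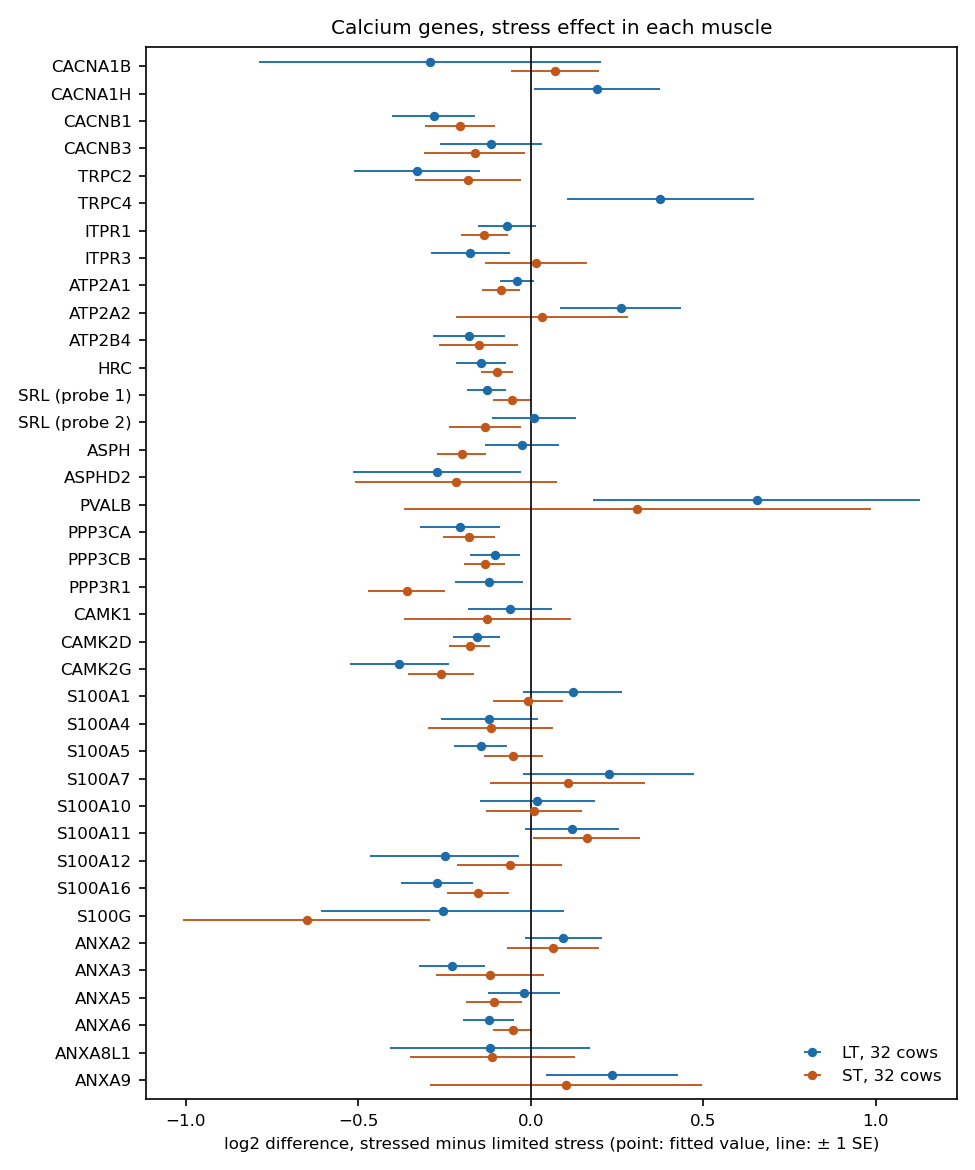
Log2 difference stressed minus limited stress of each tested member, with its standard error, in the LT and in the ST, each from limma over 32 arrays. PPP3R1 in the ST, at -0.36, is the only member called.

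When the slides were entered as a block, 4 members of the LT were called lower in stressed cows, against 2.81% of all genes called lower in that fit. CAMK2G fell by 0.46 ± 0.14 (adjusted p = 0.0594), PPP3CA by 0.29 ± 0.09 (adjusted p = 0.0572), CAMK2D by 0.20 ± 0.06 (adjusted p = 0.0888) and S100A16 by 0.33 ± 0.11 (adjusted p = 0.0964). With scan day as the block CAMK2G (-0.43, adjusted p = 0.0659) and PPP3CA (-0.26, adjusted p = 0.0658) passed. Within slides 5, 6, 7 and 8 the plain differences of CAMK2G were -0.29, -0.34, -0.46 and -0.70, and those of PPP3CA were -0.21, -0.20, -0.29 and -0.44. CAMK2D was likewise below 0 on all 4 slides, at -0.09 to -0.29, whereas S100A16 was at -0.72, 0.07, -0.26 and -0.30. The custom probe sets matched to PPP3CA and S100A16 were not called in the slide block fit, with 3 of 5 probes past the threshold for PPP3CA (1 of 5 without the cow that stood apart) and 0 of 5 for S100A16. With scan day as the block 4 of 5 PPP3CA probes passed. CAMK2G, CAMK2D and S100A16 are named here after their values were seen.

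CAMK2G, the gamma chain of CaMKII, had LT values of -2.07, -1.57 and -1.12 (lowest, median and highest) in 16 cows handled with limited stress and of -3.33, -1.96 and -1.18 in 16 stressed cows. The groups overlapped, and 14 of 16 stressed cows had a value under the limited stress median. The lowest value of CAMK2G in both muscles, and that of PPP3R1 and HRC, belonged to the cow that stood apart. Without this cow the difference of CAMK2G was -0.29 ± 0.11 (adjusted p = 0.227), and with slide as a block as well it was -0.33 ± 0.09 (adjusted p = 0.0391). In that last fit 2 members were called, CAMK2G and PPP3CA (-0.22, adjusted p = 0.088), and CAMK2D and S100A16 were not (adjusted p = 0.163 and 0.138).

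**Figure D5:**
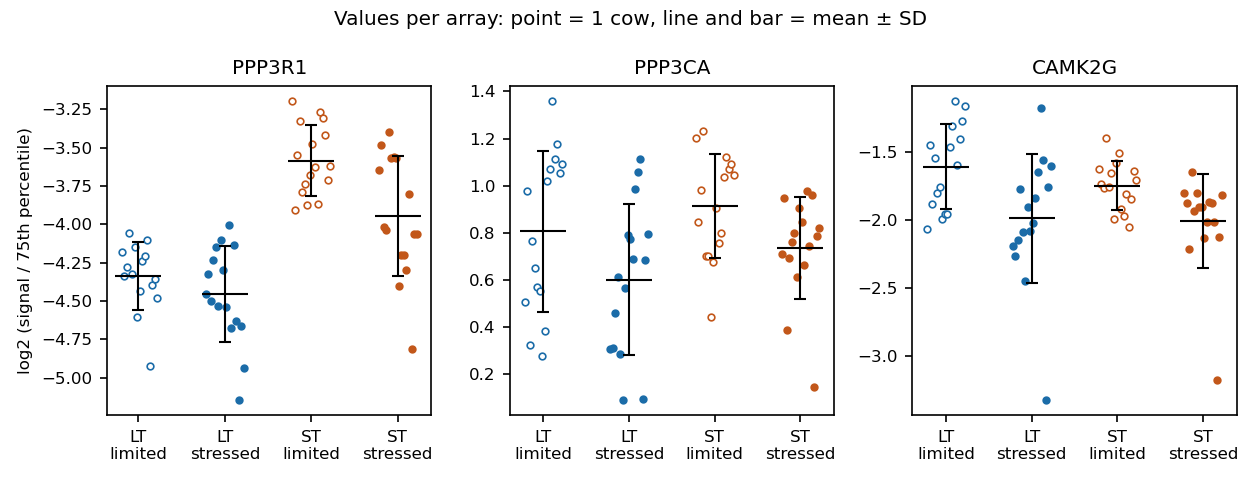
Values of PPP3R1, PPP3CA and CAMK2G on each array as log2 of the signal over the 75th percentile, by muscle and stress group, with mean and SD over 16 cows (15 for PPP3R1 in the LT of the limited stress group). Stressed and limited stress groups overlap in every panel, and the lowest PPP3R1 and CAMK2G values of each muscle are those of 1 stressed cow.

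In the ST, 1 of 35 tested members was called for stress, PPP3R1, which was lower in stressed cows, against 2.12% of all 4246 genes called lower. Its values were -3.90, -3.62 and -3.19 in 16 cows handled with limited stress and -4.81, -4.02 and -3.40 in 16 stressed cows (lowest, median and highest). The groups overlapped, though 9 of 16 stressed cows lay below the lowest cow of the limited stress group. The difference was -0.36 ± 0.11, or 1.28-fold (adjusted p = 0.0866). The matched custom set had a mean difference of -0.36, with 4 of its 5 probes past the threshold. None of the 5 passed with slide or scan day as a block, with control feature scaling, without scaling, with normexp and quantile scaling or without slide 9, and 1 passed without the cow that stood apart. The call of the named probe did not hold without the cow that stood apart (-0.30 ± 0.10, adjusted p = 0.127), with slide as a block (-0.28, adjusted p = 0.44) or with scan day as a block (-0.31, adjusted p = 0.28), nor with control feature scaling (-0.26), without scaling (-0.21) or with normexp and quantile scaling (-0.20). Within slides 1, 2, 3, 4 and 9 the differences were -0.02, 0.08, -0.55, -0.58 and -0.40. Stress was unevenly spread over these slides, which held 2, 2, 5, 1 and 6 stressed cows and 3, 6, 3, 3 and 1 cows of the limited stress group, so the differences on slides 4 and 9 each rest on a single cow in 1 arm.

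In the LT the same probe differed by -0.12 ± 0.10 (adjusted p = 0.564), with values of -4.92, -4.32 and -4.06 in 15 cows of the limited stress group and of -5.15, -4.47 and -4.00 in 16 stressed cows. The stress effect of PPP3R1 did not differ between the muscles past the threshold (0.24 ± 0.15, adjusted p = 0.999). The 6 tested genes of the calcineurin and CaMK group had differences below 0 in both muscles, which came from the same cows, against 65.2% of all genes in the LT and 69.8% in the ST. PPP3CB and CAMK1 were above 0 in the ST without scaling, and CAMK1 was above 0 in the LT with normexp and quantile scaling and with slide as a block.

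At an unadjusted p under 0.05 there were 7 members in the ST, against 14.3% of all genes. They were PPP3R1, PPP3CA (-0.18), PPP3CB (-0.13), CAMK2G (-0.26), CAMK2D (-0.18), HRC (-0.10) and ASPH (-0.20), none but the first past the adjusted threshold. In all, 26 of 35 members were below 0 with a median of -0.11, against 69.8% of all genes with a median of -0.06. This lean rested on the scaling, since the median of all probes was 0.09 without scaling and 0.03 with control feature scaling. ATP2A1 gave -0.09, ATP2A2 0.03 ± 0.25, SRL -0.05 and -0.13, CACNB1 -0.21 ± 0.10 (adjusted p = 0.289), S100A1 -0.01 and PVALB 0.31 ± 0.68 (adjusted p = 0.846). Of the marker lists for fibre and cell types, none had a gene called for stress in either muscle.

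Of the 18 tested other genes of the pathway, 2 were called higher and 0 lower in stressed cows in the LT, and 1 higher and 0 lower in the ST. Over all genes 95 were called higher and 66 lower of 4311 in the LT, and 63 higher and 90 lower of 4246 in the ST. GEM, a small GTPase that binds the beta subunits of calcium channels, rose by 0.96 ± 0.15 in the LT (adjusted p = 6.1e-05) and by 0.70 ± 0.15 in the ST (adjusted p = 0.00741). Its stress effect did not differ between the muscles past the threshold (0.26 ± 0.22, adjusted p = 0.999).

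In limma's fits of all arrays without a block the diet and the interactions gave no calls, for members or for any other gene, so that the background was 0% in each muscle for the diet and for its interaction with stress, and 0% for the interaction of muscle and stress. No member was called in any other fit either. Over all genes the interaction of muscle and stress gave 5 higher and 2 lower with cow as a block, 4 and 1 with cow and slide as blocks, and 2 and 1 without the cow that stood apart. The diet in the ST gave 2 lower with slide or with scan day as a block and 1 with slide as a block without that cow, and its interaction with stress in the ST gave 1 higher without slide 9. At an unadjusted p under 0.05 the diet gave 3 of 37 members in the LT (ANXA9, ASPHD2 and HRC) and 3 of 35 in the ST (S100G, S100A10 and ANXA5), against 3.13% and 4.0% of all genes. S100G, a small calcium-binding protein known from the intestine, had ST values of -5.63, -4.01 and -1.55 on the EP diet and of -6.70, -5.07 and -3.29 on the control diet, with a difference of 1.11 ± 0.36 (adjusted p = 0.544). Fat cell markers moved with it in the ST, none past the threshold, with diet differences of 1.44 for FABP4, 1.15 for ADIPOQ and 0.75 for PLIN (summed levels of 0.331 to 6.12 on the EP diet and 0.143 to 2.85 on the control diet). Their part in the S100G difference was not tested.

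For the interaction of stress and diet, 3 members in the LT (ATP2B4, CACNB3 and S100A10) and 2 in the ST (CACNB3 and ITPR1) had an unadjusted p under 0.05, against 2.04% and 3.74% of all genes. CACNB3, a beta subunit of calcium channels, gave 0.77 ± 0.30 in the LT and 0.75 ± 0.29 in the ST, with adjusted p of 0.9999 and 0.969. PVALB gave 2.12 ± 1.35 in the ST (adjusted p = 0.969), with group medians of -1.06 and 0.22 on the EP diet (limited stress, then stressed) and of -0.89 and -1.37 on the control diet. For the interaction of muscle and stress no member had an unadjusted p under 0.05, against 2.08% of all genes.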

How the data were processed

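Expression was measured in the LT and ST of 32 cows on 64 single-colour Agilent arrays. Per the file headers, the deposited intensities are processed signals of Feature Extraction, background-subtracted and detrended, without scaling between arrays. The deposited table held the same intensities (largest relative difference 0.0). Each signal was divided by the array's 75th percentile over spots other than controls and log2 transformed. Scaling to the median of the 536 control features marked in the files was kept as an alternative. The methods scale to control probes, of which the paper counts more, so the alternative is not the same scaling. The median control feature lay near background, at 1.73 to 6.36 units per array (median of arrays 3.24 units). Spots set aside by the software were left out (0 to 130 per array), and spots of a probe were averaged. The tests, in probes above background on 11 or more of the 32 arrays of a muscle (22 or more of 64 for both), were made with limma 3.58.1 and statmod 1.5.0 in R 4.3.3, two-sided, with Benjamini-Hochberg adjustment over all tested probes. The scripts were tested on simulated data.

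Stress, diet and their interaction were tested within each muscle, and the muscles and the muscle and stress interaction over all arrays. The paper's model also held a period factor, which the labels do not give, so it was left out of these fits. Groups came from the labels. The cow number marks the same animal in both muscles. Over 32 of 32 cows the residuals of LT and ST correlated above 0.1 (0.104 to 0.763, median 0.432), so cow pairs the samples, and cow as a block was an alternative. No 2 arrays held identical values. Alternatives were control feature scaling, no scaling, normexp (offset 50) with quantile scaling, other filters and call rules, and cow, slide or scan day as a block. Leaving out slides 5 and 6, slides 7 and 8, slide 9 or the cow that stood apart, the latter also with slide as a block, was chosen after seeing the data. The fits without slides 5 and 6 or without slides 7 and 8 kept the ST arrays of the cows left out of the LT. Slides 5 and 6 held LT samples of other cows than slides 7 and 8, so scan day and cow cannot be told apart there.

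The members and lists were chosen with earlier results of these data known. Named with values were members called for stress, diet or an interaction, the 20 largest called differences between muscles, and the core genes of the triad, reticulum, parvalbumin, S100A1 and calcineurin. A check of probe sequences against proteins was planned but no protein table was used here, so the part of the transcript that a probe covers is not stated. The number of arrays limits the precision. Values of some genes of the marker and pathway lists are not reported here.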

Additional observations from a re-analysis of the deposited data

Results flagged for a closer look

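In groups of 8 samples, 18 of 168 groups of the named members held 1 sample far from the other 7, where chance gives about 1 in 20. The cow that stood apart held 4 of them as the lowest of the stressed group on the control diet, with SRL at 3.82 in the LT (next 4.33) and 4.24 in the ST (next 4.69), the other SRL probe at -3.07 in the ST (next -2.49) and PPP3CB at 0.76 in the LT (next 1.21). Another stressed cow on the control diet had high S100A7 in both muscles, at -4.03 in the LT (next -6.00) and -3.82 in the ST (next -5.47). A cow handled with limited stress on the EP diet had, in the ST, high ATP2A2 at 0.62 (next -1.02) and low CACNB1 at -1.45 (next -0.85). A cow of the limited stress group on the control diet had, in the ST, high S100A12 at -3.08 (next -3.95) and low ASPH at -5.15 (next -4.86).

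The rest were single values. PVALB was low at -4.17 in the ST of a stressed cow on the EP diet (next -0.36). S100A4 was high at 0.89 in the LT of a limited stress cow on the EP diet (next 0.08) and low at -0.93 in the LT of one on the control diet (next -0.21). ASPH was high at -4.37 in the LT of a stressed cow on the EP diet (next -5.11) and low at -5.50 in the ST of a stressed cow on the control diet (next -5.02). In limited stress cows on the EP diet, ASPHD2 was low at -7.33 in the ST (next -5.53), S100A1 high at 3.25 in the ST (next 2.81) and the dimmer SRL probe high at -1.95 in the LT (next -2.43).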

How the results depend on the processing

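The counts of members called kept within 1.5 times of the main count under 103 pairs of a count and an alternative, and moved under the following. Members higher in the LT numbered 9 with control feature scaling, 13 without scaling and 7 with the cow as replicate block, against 4, and members lower in the LT numbered 5 and 8 under the first 2 of these, against 15. For stress in the LT, 2 members were called with scan day as a block, 4 with slide as a block and 2 with slide as a block without the cow that stood apart, against 0. For stress in the ST, 0 were called, against 1, at adjusted p under 0.05, with control feature scaling, without scaling, with no filter, with normexp and quantile scaling, with scan day or slide as a block, without slide 9, and without the cow that stood apart, with or without slide as a block. The cow pairing as a block changed no call of the muscle and stress interaction among the members.

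The following covers the differences between muscles of the called members and PPP3CA, and the stress differences of the core members and PPP3R1. LT minus ST turned to 0.0485 (ANXA5), 0.0027 (ASPH), 0.0303 (ATP2A1), 0.067 (PPP3CA) and 0.0523 (S100A16) with control feature scaling, to 0.0068 (PPP3CA) without scaling, to 0.0149 (ANXA5), 0.0898 (CACNA1B) and 0.118 (S100A12) without slides 7 and 8, and to 0.127 (PPP3CA) without slides 5 and 6. Stress in the LT turned to -0.0565 (S100A1) with control feature scaling, 0.0105 (ASPH) without scaling and 0.014 (SRL) with slide as a block without the cow that stood apart. Stress in the ST turned to 0.0827 (ATP2A1), 0.0873 (S100A1) and 0.0021 (SRL) with control feature scaling, to 0.0811 (ATP2A1), 0.0507 (HRC), 0.015 (PPP3CB), 0.141 (S100A1) and 0.0554 (SRL) without scaling, to 0.0073 (ATP2A1) with normexp and quantile scaling, and to -0.21 (PVALB) without slide 9. S100A1 in the ST was at 0.0188 with scan day as a block, 0.0379 with slide as a block and 0.0127 when the cow that stood apart was left out as well. The causes were not tested. Signal near background limits ANXA9, CAMK1, TRPC2, TRPC4 and CACNA1H, which were above background on part of the arrays.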
